A study of Mus musculus with 8 samples.

Results

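The cation chloride cotransporter genes Slc12a2, Slc12a4, Slc12a5, Slc12a7 and Slc12a9 were followed in adult oligodendrocyte progenitors (aOPC) and adult oligodendrocytes (aOL) of the mouse brain. The members were listed by name. Of the 5 genes, 4 were among the 11315 genes of the RNA tables, and all 5 had cytosines in the tables of DNA hydroxymethylation, where 246 of 1497075 cytosines carried a member's name in the promoter, exon or intron column. Slc12a5 was not listed in the RNA tables. Of other genes of the family, Slc12a1, Slc12a3 and Slc12a8 were read beside them.

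Both populations came from brains of C57BL/6 mice at postnatal day 60. The aOPC were sorted by fluorescence from animals in which the Pdgfra locus drives a nuclear EGFP (Pdgfra-H2BEGFP), and the aOL from animals in which the Plp promoter drives EGFP (Plp-EGFP), so that population and reporter line cannot be told apart. For each population 2 RNA-sequencing libraries and 2 libraries of reduced representation hydroxymethylation profiling (RRHP) were used, the replicates numbered 2 and 3, and the first replicate was not analysed here. In RRHP a glucose group on 5-hydroxymethylcytosine protects the sequence CCGG from cutting, so that a read count at a CCGG cytosine follows its hydroxymethylation. The study describes its replicates as biological, from independent cell preparations, but no label ties these libraries to separate animals, and p-values measure only the spread between these samples. For RRHP of aOL the Pdgfra reporter is given as tissue, against the titles, and grouping followed the titles.

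Cotransporters of this family move chloride across the cell membrane together with sodium, potassium or both. Slc12a2, known as NKCC1, loads cells with chloride, while Slc12a4, Slc12a5 and Slc12a7 are potassium chloride cotransporters that let it out. The balance between import and export sets the chloride content of a cell, its volume and its response to GABA, and Slc12a5, known as KCC2, is the exporter of mature neurons. Slc12a9 is a family member without an established transport substrate.

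The libraries were compared with their labels through marker genes. Pdgfra, the receptor whose locus marked the progenitors, was at 7.54 and 5.47 on the log2 scale in the aOPC libraries and at 4.98 and 1.63 in the aOL libraries. The 10 progenitor markers listed of 11 overlapped between populations in their summed level. It was 17.54 and 17.28 in aOPC against 17.25 and 17.33 in aOL. Olig1 made up most of that sum, at 16.86 and 16.77 in aOPC, with 16.38 and 16.45 in aOL. The sum therefore says little about scarcer markers such as Pdgfra. Of the 10 progenitor markers, 4 were lower and 2 (Matn4 and Sox10) higher in aOL without overlap. At an unadjusted limma p under 0.05, 2 were lower and 0 higher. Over all genes tested, 29.9% were lower and 31.9% higher without overlap, and 24.0% had such a p in either direction. Of the 2 progenitor markers with such a p, Neu4 was at 9.90 and 7.07 in aOPC, with 3.03 and 3.61 in aOL. Neu4 passed the low-value filter of 5 only through aOPC, which fixed its direction, so its p is no support for the labels. All 12 markers of mature oligodendrocytes were listed, and their summed level lay between 22.54 and 22.72 in aOPC and between 22.64 and 22.68 in aOL. Of those 12, 5 were lower and 2 higher in aOL without overlap, and 5 lower and 0 higher had an unadjusted limma p under 0.05, against the same shares over all genes. The summed level of the 8 neuronal markers listed of 12 was 12.54 and 12.91 in aOPC, with 12.47 and 12.44 in aOL. It ranged from 13.41 to 13.76 for the 8 astrocyte markers and from 11.70 to 12.59 for the 10 microglial markers listed of 11. For astrocytes and microglia the populations overlapped in this sum. Of 7 endothelial markers only Cldn5 was listed, at 0.33 and 1.80 in aOPC, with 5.92 and 7.13 in aOL. The 5 ependymal and choroid plexus markers summed to 11.60 and 11.55 in aOPC, with 11.23 and 11.53 in aOL. The part of these other cells in the results below was not tested, and in bulk samples fewer cells of a type and less RNA per cell cannot be told apart.

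Transcripts of the chloride importer Slc12a2 were abundant in both populations and lay higher in aOL, short of the adjusted threshold. The deposited log2 level was 15.82 and 15.94 in the aOPC libraries, with 16.86 and 16.79 in the aOL libraries. Both aOL libraries lay above both aOPC libraries, and the distance between the populations exceeded that between replicates. The log2 difference was 0.95 with a standard error of 0.19 and a 95% interval from 0.43 to 1.47, a 1.93-fold higher level in aOL, with a limma p of 0.00679 and an adjusted p of 0.133 over all genes.

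Transcripts of the exporter Slc12a7, known as KCC4, went the other way and were scarce. Its level was 7.77 and 7.71 in aOPC, with 5.60 and 6.03 in aOL. The populations did not overlap, and the aOL libraries lay just above the low-value filter of 5. The log2 difference was -1.92 with a standard error of 0.24 and an interval from -2.58 to -1.27, which is 3.80-fold higher in aOPC, with a limma p of 0.00107 and an adjusted p of 0.108.

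The other listed members differed little. Slc12a4, known as KCC1 and found in most tissues, was at 10.83 and 10.998 in aOPC, with 11.09 and 11.11 in aOL. Its populations did not overlap, but the log2 difference of 0.19 had an interval from -0.34 to 0.72 and a limma adjusted p of 0.575. Slc12a9 was at 11.93 and 12.15 in aOPC, with 11.85 and 12.001 in aOL, and its populations overlapped. Its log2 difference was -0.12, with an interval from -0.68 to 0.45 and a limma adjusted p of 0.744.

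By the thresholds of the study, a limma p under 0.01 together with an adjusted p under 0.05, 0 of the 4 listed members were called, where 9 of 11133 genes tested (0.0808%) were. At an unadjusted p under 0.05 there were 2 of the 4, Slc12a2 higher and Slc12a7 lower in aOL, next to 24.0% of all genes. Populations did not overlap for 2 members higher in aOL and 1 lower, and for 31.9% and 29.9% of all genes. The median log2 difference was 0.04 over the 4 members and 0.02 over all genes tested. Both genes were called only with 1 aOPC library left out. Without aOPC replicate 2, Slc12a2 (0.89, adjusted p = 0.0172) and Slc12a7 (-1.89, adjusted p = 0.0183) were called by limma, together with 36.3% of genes. Without aOPC replicate 3 they were also called (adjusted p = 0.0391 and 0.0409), together with 21.3% of genes.

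**Figure D1:**
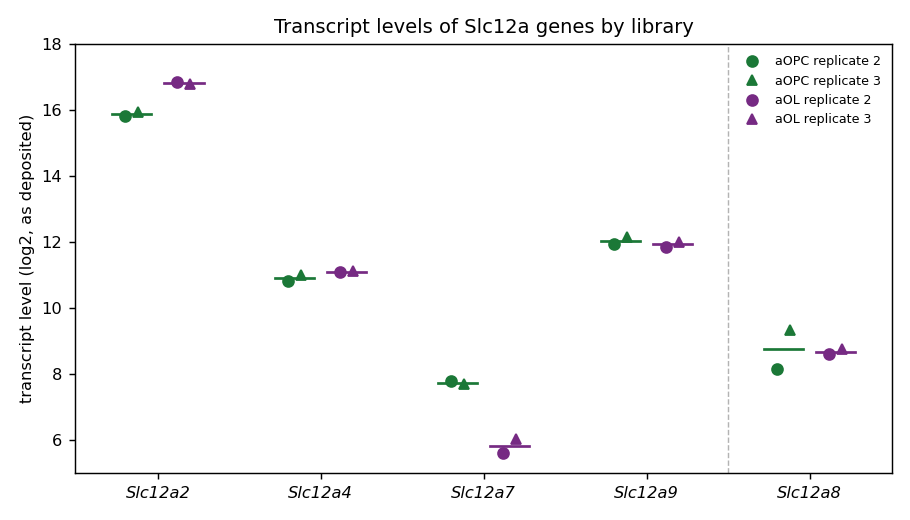
Deposited log2 transcript level (vertical axis) of 4 members, left of the dashed line, and of Slc12a8, right of it, with 1 point per library and a bar at the mean of each population. Slc12a2 sits highest in every library, at 15.82 and 15.94 in aOPC, with 16.86 and 16.79 in aOL, and Slc12a7 lowest.

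Slc12a2 stood apart from its family in level as well. Since reads scale with transcript length, levels of different genes were compared after division by the exon length in kilobases, 10.92 for Slc12a2. On this log2 scale per kilobase, Slc12a2 reached 12.43 ± 0.086 in aOPC and 13.38 ± 0.050 in aOL (SD, n = 2), above 95.7% and 98.4% of the genes with a length. Slc12a9 followed with 9.71 ± 0.15 and 9.60 ± 0.11, and Slc12a4 with 8.81 ± 0.12 and 9.003 ± 0.010. Slc12a7 was far below, at 4.08 ± 0.046 and 2.15 ± 0.30, above 7.35% and 2.18% of genes. The order of the 4 members was the same in every library, and no neighbours in it overlapped. Per kilobase, the importer exceeded the next member, Slc12a9, by 6.78-fold and 6.34-fold in the aOPC libraries and by 14.8-fold and 12.7-fold in the aOL libraries.

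Without the length correction, which cancels in a difference between populations, Slc12a2 stood above the median of the other 3 listed members by 4.99 and 4.94 log2 units in aOPC and by 5.77 and 5.69 in aOL. Its difference between populations exceeded the median difference of the other members by 1.07. Neither listed exporter was higher in aOL at an unadjusted limma p under 0.05.

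Among the other genes of the family, Slc12a8 was at 8.16 and 9.34 in aOPC, with 8.60 and 8.75 in aOL, a log2 difference of -0.08. Slc12a1 and Slc12a3, the transporters of the kidney tubule, were not listed in RNA.

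The genes whose pattern came closest to that of Slc12a2 were taken by the root mean square distance of their log2 levels, each centred on its own mean, over the 4 RNA libraries. The nearest of 11132 genes was Topbp1, a replication and DNA damage checkpoint protein, at a distance of 0.034 log2 units, at levels of 9.68 and 9.78 in aOPC, with 10.77 and 10.72 in aOL. Ipo7, a nuclear import receptor, Tmem229a, Galnt7, an enzyme of O-glycosylation, and Spty2d1, a histone chaperone, followed at 0.036 each. As many as 117 genes lay within 0.1, and with 4 libraries such likeness is a description of levels alone.

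The wider chloride machinery was read from lists of genes. The WNK kinases sense chloride and volume and, through the kinases encoded by Stk39 and Oxsr1, switch importers on and exporters off by phosphorylation. Of 13 genes for these kinases and their partners, 11 were tested in RNA, 0 were called, and 4 were higher and 2 lower in aOL at an unadjusted limma p under 0.05, with a median log2 difference of 0.67 against 0.02 over all genes. Over all genes 0.0808% were called and 24.0% passed the unadjusted threshold in either direction, which is also the background of the pump, channel and receptor lists. Wnk1 was at 14.49 and 14.18 in aOPC, with 13.07 and 13.20 in aOL, a log2 difference of -1.20 (limma adjusted p = 0.131). Wnk3 was at 7.65 and 6.75 in aOPC, with 8.87 and 8.85 in aOL, a difference of 1.66 (adjusted p = 0.137 by limma). Cul3, a ubiquitin ligase scaffold that limits the WNK kinases, was at 10.498 and 10.06 in aOPC, with 11.18 and 11.14 in aOL (difference 0.88). Stk39 itself was at 13.30 and 13.19 in aOPC, with 13.29 and 13.23 in aOL.

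The sodium pump builds the gradient that drives import through Slc12a2. Of 10 subunit genes, 9 were tested, 0 were called, and 0 were higher and 2 lower at an unadjusted limma p under 0.05. Fxyd5, a regulatory subunit, was at 9.93 and 9.90 in aOPC, with 4.69 and 3.82 in aOL. Its log2 difference was -5.66 with a limma adjusted p of 0.0611. Fxyd5 passed the low-value filter of 5 only through aOPC, which fixed its direction, so its p is no support for it. Atp1b1, a beta subunit, was at 9.55 and 8.42 in aOPC, with 6.18 and 7.19 in aOL, a difference of -2.29, and Atp1b2 had a difference of 0.60 with overlapping populations.

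Among 20 chloride channels and anion exchangers, 18 were tested and 0 called, with 3 higher and 1 lower at an unadjusted limma p under 0.05. Clcn5, an endosomal chloride proton exchanger, was at 9.57 and 10.22 in aOPC, with 11.36 and 11.22 in aOL. For the volume-regulated anion channel, the subunit gene Lrrc8a had a log2 difference of -0.96 and Lrrc8d one of 0.996, both without overlap between populations. Of 12 GABA-A receptor subunits, through which chloride flows, 2 were listed. Gabra3 was at 5.78 and 4.33 in aOPC, with 7.32 and 7.19 in aOL. Of these 2 tested genes 0 were called, and Gabra3 was the 1 with an unadjusted limma p under 0.05. With 1 aOPC library below the low-value filter of 5, Gabra3 was tested only because of aOL, where it was high. Its p is therefore given as a count only.

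Hydroxymethylation counts were next followed along the members. The RRHP libraries summed to 7113237 and 17121440 counts in aOPC and to 15923775 and 27057859 in aOL, so that 3 counts correspond to 0.422, 0.175, 0.188 and 0.111 counts per 1000000 (CPM). All cytosines on the assembled chromosomes lay in a CCGG of the mm10 genome. The aOPC replicate 2 library held 8.55% of its counts in promoters, where the other 3 held 4.87% to 5.52%.

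**Figure D2:**
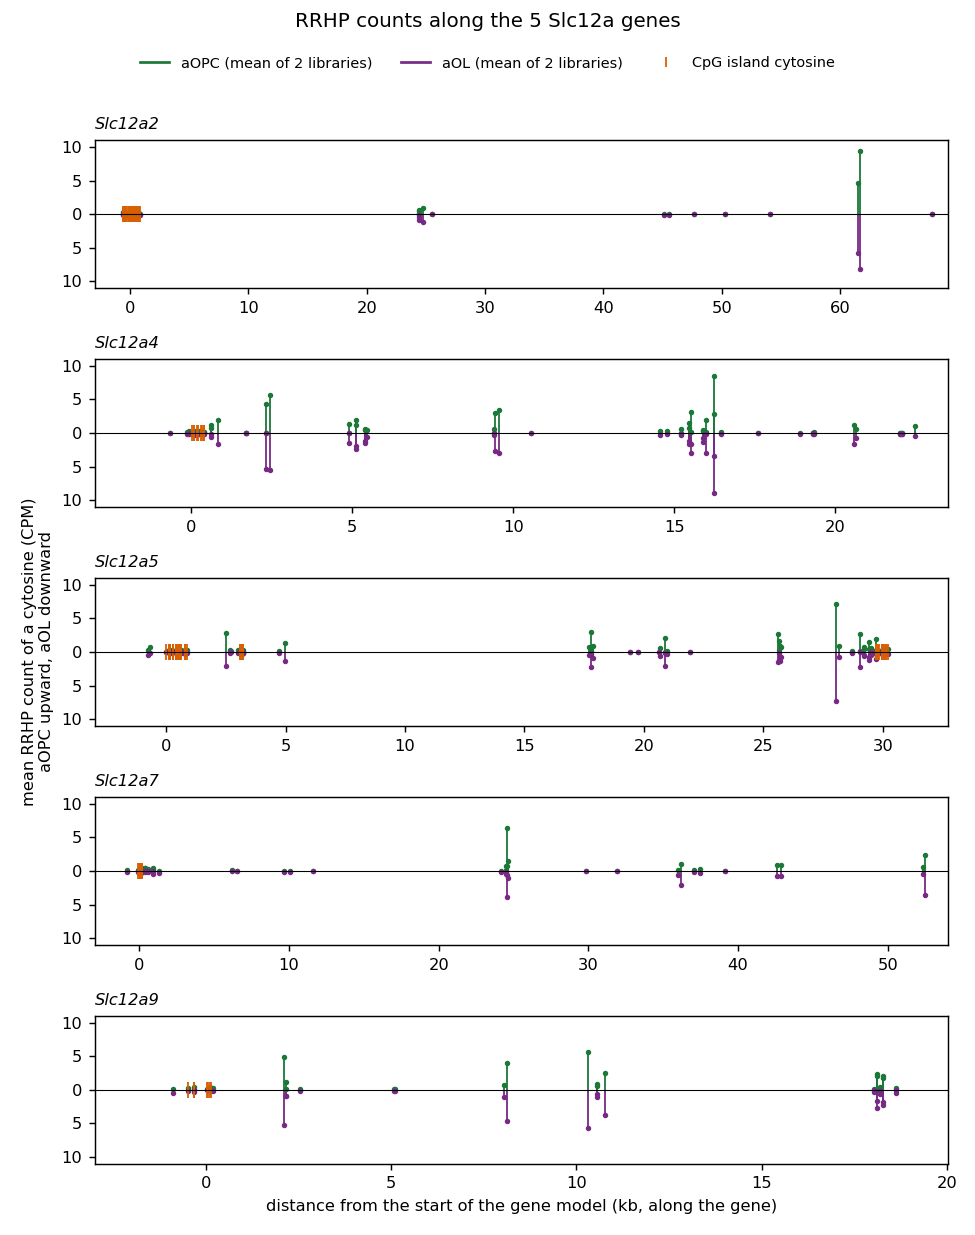
Mean RRHP count in CPM of each cytosine that carries a member's name, aOPC upward and aOL downward, against the distance in kb from the start of the gene model, with orange ticks at CpG island cytosines. Counts stood in a few intragenic cytosines that were tall in both populations, and cytosines at the starts were near 0.

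In every member the counts were concentrated in cytosines inside the gene and low at its start, and the profiles of aOPC and aOL mirrored each other.

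The highest cytosines of Slc12a4, Slc12a5, Slc12a7 and Slc12a9 are shown with 61 bases of mm10 sequence on the strand of the gene, the CCGG read by the assay in capitals. Each has the highest mean count of its gene, and 3 of these 4 were at the top of their gene in all 4 libraries.
Slc12a4, intron 11, chr8:105949830-105949890, minus strand: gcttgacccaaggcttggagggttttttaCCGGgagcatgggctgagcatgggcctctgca
Slc12a5, intron 21, chr2:164995987-164996047, plus strand: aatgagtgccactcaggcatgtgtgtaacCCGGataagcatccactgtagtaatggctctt
Slc12a7, intron 3, chr13:73788233-73788293, plus strand: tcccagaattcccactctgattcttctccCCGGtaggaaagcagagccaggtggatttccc
Slc12a9, intron 9, chr5:137323259-137323319, minus strand: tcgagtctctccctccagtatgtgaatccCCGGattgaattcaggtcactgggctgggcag

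The Slc12a4 cytosine had 53 and 161 reads in aOPC, with 138 and 247 in aOL, a mean of 8.66 CPM that exceeded 99.6% of all cytosines in the tables. The Slc12a5 cytosine had 51 and 123 against 107 and 211 reads. Both were level between the populations, with log2 differences of -0.03 and -0.08. The Slc12a9 cytosine had 27 and 126 reads in aOPC, with 98 and 143 in aOL, and was the highest of its gene in 1 library only. The Slc12a7 cytosine was the single top cytosine with an unadjusted edgeR p under 0.05, at 58 and 79 reads in aOPC, with 70 and 95 in aOL. In CPM these were 8.15 and 4.61 against 4.40 and 3.51, without overlap. Its log2 difference of -0.77 had an interval from -1.51 to -0.04 and an adjusted p of 0.475.

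Slc12a2 (mm10 chromosome 18, 57878512 to 57946821) was the extreme case. Of its 30 gene-body cytosines, the 2 highest, both far downstream at exon 24 and intron 24, held 73.5% and 75.6% of the gene-body counts in aOPC and 79.9% and 73.2% in aOL. The Wilson 95% intervals of these shares ran from 65.5% to 84.2% over the libraries and cover counting error only. In the other members the share of the 2 highest cytosines was 18.4% to 49.3%, and the intervals of Slc12a2 overlapped none of theirs. The intron cytosine at 57940371, minus strand, had 77 and 137 reads in aOPC, with 135 and 213 in aOL, and the coding cytosine at 57940160, plus strand, had 23 and 102 against 92 and 158. Their log2 differences were -0.30 and 0.20, with edgeR adjusted p of 0.816 and 0.897.

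Gene bodies of the members showed no difference between aOPC and aOL beyond the spread of replicates. After scaling by the trimmed mean of M values (TMM), the summed gene-body count of Slc12a2 was 19.0 and 18.7 CPM in aOPC, with 17.7 and 18.7 in aOL. The log2 difference was -0.04 with an interval from -0.37 to 0.28 and an edgeR adjusted p of 0.942. With the read totals of the study's methods in place of TMM it was 0.33, where the median of all gene bodies was 0.37. Slc12a7, with the largest transcript difference, had 19.6 and 17.3 CPM in aOPC, with 17.4 and 17.6 in aOL, a log2 difference of -0.06 with an interval from -0.40 to 0.28.

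Slc12a4 had 50.2 and 55.8 CPM in aOPC, with 62.8 and 54.2 in aOL, and its log2 difference was 0.13 with an interval from -0.16 to 0.43. Slc12a9 had 26.7 and 36.4 against 35.3 and 34.9 CPM, a difference of 0.13 with an interval from -0.21 to 0.48. The neuronal exporter Slc12a5 had the widest replicates, 53.8 and 36.2 CPM in aOPC, with 32.1 and 38.7 in aOL, and a difference of -0.32 with an interval from -0.73 to 0.09. All 5 pairs of populations overlapped. Of 5 members 0 were called by edgeR and 0 had an unadjusted p under 0.05, where 157 of 18488 gene bodies (0.849%) were called, and DESeq2 called 0 as well. The median over members was -0.04 against 0.00 over all gene bodies. Without aOPC replicate 3, Slc12a5 (-0.58, edgeR adjusted p = 2.12e-04) and Slc12a9 (0.40, adjusted p = 0.0342) were called, along with 22.6% of gene bodies. Without aOPC replicate 2 the Slc12a5 difference was -0.025, so that its size rested on that library.

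**Figure D3:**
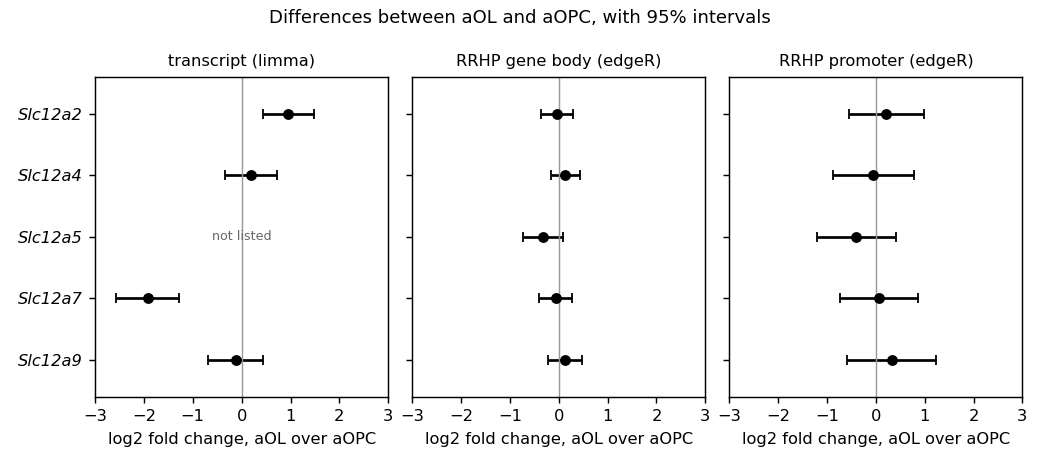
Log2 difference of aOL over aOPC with its 95% interval (horizontal axes) for the transcript, the RRHP gene body and the RRHP promoter of each member. The transcript intervals of Slc12a2 (0.43 to 1.47) and Slc12a7 (-2.58 to -1.27) lie off 0, while those of all 5 gene bodies and promoters cross it.

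Promoters carried few counts. The promoter cytosines of Slc12a2, of which there were 27, all in a CpG island, averaged 0.121 CPM per cytosine, below 0.618 in its gene body, and 5 of the 27 had reads in all 4 libraries. Promoter and gene-body means were 0.322 and 0.995 for Slc12a4, 0.174 and 0.551 for Slc12a5, 0.179 and 0.513 for Slc12a7 and 0.196 and 1.19 for Slc12a9. Over all genes they were 0.287 and 0.750. The members thus shared a lower promoter than gene body with genes at large, and Slc12a2 had the lowest promoter mean over the 4 libraries. In aOL replicate 2 alone, Slc12a5 was lower, at 0.0722 against 0.0791 CPM per cytosine.

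**Figure D4:**
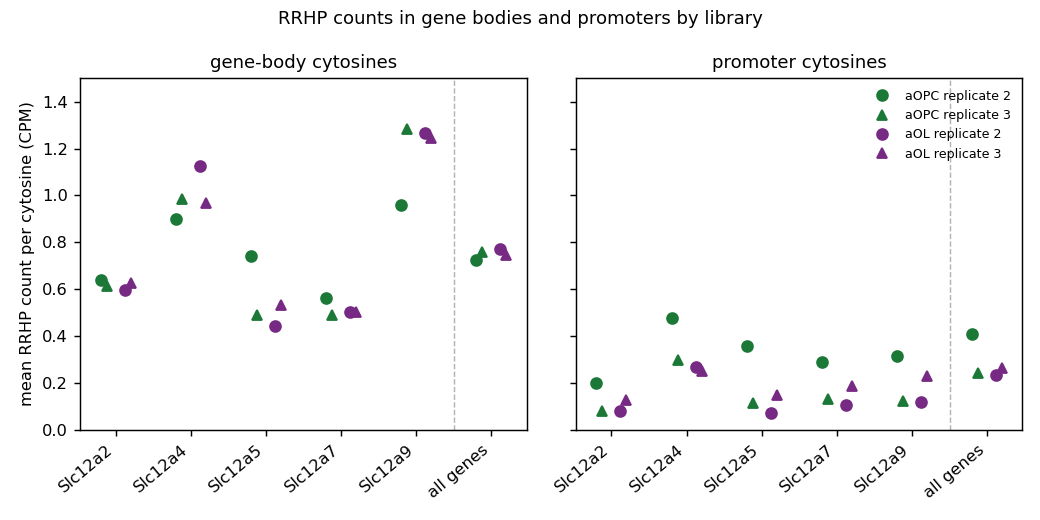
Mean RRHP count per cytosine in CPM (vertical axis) of each member and of all genes, for gene-body cytosines (left) and promoter cytosines (right), with 1 point per library. In the promoters of the members and of all genes aOPC replicate 2 is the highest point, for all genes at 0.409 against 0.233 to 0.264 in the other libraries.

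The promoter counts of Slc12a2 were 38 and 36 in aOPC, with 34 and 93 in aOL, and its log2 difference after TMM scaling was 0.22 with an interval from -0.55 to 0.99. The values were -0.06 for Slc12a4 (54 and 81 against 68 and 108 counts), -0.40 for Slc12a5 (51 and 39 against 23 and 81), 0.06 for Slc12a7 (31 and 34 against 25 and 76) and 0.32 for Slc12a9 (20 and 19 against 17 and 56). Of the 5 members 0 were called and 0 had an unadjusted p under 0.05, the edgeR adjusted p was 0.998 for each, 112 of 14579 promoters (0.768%) were called, and DESeq2 called 0 members. The intervals of the other 4 members ran from -1.20 to 1.23, and differences within them were not detectable at this depth. With library totals in place of TMM, which gave aOPC replicate 2 a factor of 1.75 and the others 0.757 to 0.936, the median promoter moved to -0.60 and Slc12a2, Slc12a7 and Slc12a9 turned to negative values. Relative to that median they stood at 0.21, 0.10 and 0.33, and Slc12a5 at -0.45.

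At the start of Slc12a7, the 250 bases upstream of the first of its 2 neighbouring RefSeq starts hold 2 CCGG on mm10, in capitals, and are shown because the transcript of this member had the largest difference and its promoter count had none beyond the replicate spread.
Slc12a7, upstream of the start, chr13:73763410-73763659, plus strand: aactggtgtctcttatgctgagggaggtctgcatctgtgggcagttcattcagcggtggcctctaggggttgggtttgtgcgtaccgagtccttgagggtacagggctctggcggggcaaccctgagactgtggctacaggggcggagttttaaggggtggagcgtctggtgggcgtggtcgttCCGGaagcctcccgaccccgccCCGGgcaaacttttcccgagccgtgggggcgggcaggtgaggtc
Over RefSeq promoters of the same length, 47.1% of 32851 hold a CCGG. In this window the cytosine at 73763617, plus strand, had 1 and 1 read in aOPC and 2 and 5 in aOL, too few to test.

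At the level of single cytosines, 69 of the 246 passed the filter of at least 10 reads in at least 2 libraries, and 34 of the 69 had a log2 difference above 0. None was called by edgeR at an adjusted p under 0.05, where 2.29% of 443062 cytosines tested were, and the DESeq2 count was 0 as well. At an unadjusted p under 0.05 there were 4, next to 9.75% of all cytosines tested. In addition to the Slc12a7 cytosine above, these were 2 in coding exons of Slc12a4 and 1 in intron 3 of Slc12a9, all 3 higher in aOL. These 3 passed the read filter only through aOL, which fixed their direction, so their p is no support for it. Slc12a2, with 4 cytosines tested, had none.

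The smallest p in Slc12a4 and in Slc12a9 belonged to the following CCGG, printed as before.
Slc12a4, exon 11, chr8:105950173-105950233, minus strand: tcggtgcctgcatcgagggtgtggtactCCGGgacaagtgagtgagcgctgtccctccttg
Slc12a9, intron 3, chr5:137331404-137331464, minus strand: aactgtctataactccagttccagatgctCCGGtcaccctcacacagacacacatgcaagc

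The exon 11 cytosine of Slc12a4, at 105950203 on the plus strand, had 2 and 4 reads in aOPC, with 25 and 28 in aOL. The log2 difference was 2.25 with an interval from 0.94 to 3.56, an unadjusted p of 0.00232 and an edgeR adjusted p of 0.0842. Close by in exon 10, the cytosine at 105950578, minus strand, had 0 and 8 reads in aOPC, with 28 and 39 in aOL, also a difference of 2.25 with an adjusted p of 0.105. In Slc12a9 the intron 3 cytosine had 0 and 5 reads in aOPC, with 19 and 21 in aOL, a difference of 2.16 with an adjusted p of 0.215. In each of the 3 both aOL libraries lay above both aOPC libraries, and in each the aOPC counts were below 10, where a few reads decide the value. The 105950578 cytosine was called with the replicate number as a block (edgeR adjusted p = 0.0250), as were 2.94% of all tested cytosines, and the 105950203 cytosine with library totals only (edgeR adjusted p = 0.0497), as were 2.51%. Without aOPC replicate 3, 6 cytosines of Slc12a4, Slc12a5 and Slc12a7 were called, along with 6.74% of all.

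No tested cytosine of the members was read in 1 population alone, taken as at least 10 reads in both libraries of one and at most 1 read in each library of the other, while 1.89% of all tested cytosines were. Such cytosines did occur in gene bodies of the chloride machinery. Oxsr1, a kinase that phosphorylates Slc12a2, fell from 56.3 and 68.1 CPM in aOPC to 22.4 and 20.5 in aOL, a log2 difference of -1.55 with a standard error of 0.14 and an edgeR adjusted p of 4.75e-04. Of its 22 tested cytosines, 6 were read in aOPC alone, with 135 and 377 reads against 0 and 2. With only cytosines of at least 3 reads in every library, the Oxsr1 difference was -1.01 (edgeR adjusted p = 0.0443), and with the read totals of the study's methods it was not called (edgeR adjusted p = 0.648). Its transcript was at 9.99 and 9.14 in aOPC, with 10.17 and 10.35 in aOL. Oxsr1 was the 1 gene called of the 13 in its list, where 0.849% of all gene bodies were called. Of the pump subunits, 2 of 10 were called, among them Fxyd7, whose counts were 0 and 0 in aOPC, with 30 and 38 in aOL at a single tested cytosine. Fxyd7 entered the test only through aOL, where it was high, and its call is given as a count only. Of the 19 channels and exchangers tested, 1 was called, Ano8 with -0.78, and 0 of 12 GABA-A subunits were. Ano8 held 3 cytosines read in aOPC alone, and with only cytosines of at least 3 reads in every library, which removes these and other thin ones, it was not called (-0.04, edgeR adjusted p = 0.961). Oxsr1, Fxyd7 and Ano8 were named here after their values were seen.

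Both strands of a CpG are counted apart in RRHP, and in the members they often differed. Of 23 CpGs with both strands listed and at least 50 reads over the 4 libraries, 12 had more than 2 times as many reads on one strand, and in all 12 the same strand was the higher in each of the 4 libraries. The CpG at 105963784 in Slc12a4 had 1 read on the plus strand and 332 on the minus strand, and that at 164997016 in Slc12a5 had 166 and 6. For the top cytosine of Slc12a7 the counts were 302 and 45. Over all 155311 CpGs that met the same minimum, 76.2% exceeded that ratio, against 52.2% of the members' CpGs.

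**Figure D5:**
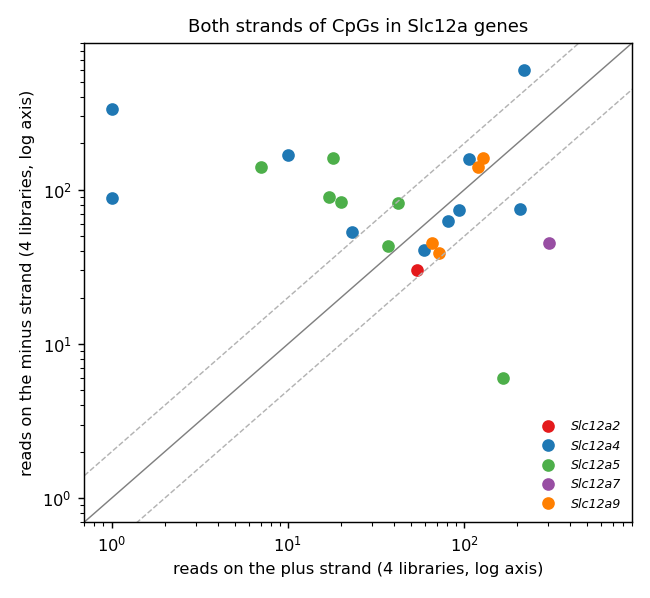
Reads on the minus strand against reads on the plus strand, summed over 4 libraries on log axes, for 23 CpGs of the members, with the line of equal counts and dashed lines at a ratio of 2. Of the 23 points 12 lie outside the dashed lines.

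Set against the genome, the members differed in the density of RRHP counts. Per kilobase of the RefSeq gene span, the mean count was 2.47 CPM for Slc12a4, 1.63 for Slc12a9, 1.13 for Slc12a5, 0.303 for Slc12a7 and 0.277 for Slc12a2, where the median of 17583 coding genes was 0.583. Per CCGG cytosine in the span, Slc12a4 (0.581 CPM) and Slc12a9 (0.463) stayed above the median of 0.273, at the 88.8 and 79.2 percentiles, and Slc12a5 (0.282) was near it. Slc12a2 (0.210) and Slc12a7 (0.192) were below it, at the 37.5 and 33.5 percentiles, although their transcripts were the most and the least abundant of the listed members per kilobase. Slc12a1 and Slc12a3 had 0.475 and 0.432.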

How the data were processed

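RNA tables held log2 values that the authors had normalized; their methods name BWA alignment, featureCounts on Ensembl GRCm38 exons and DESeq2, and the submitters' processing notes give BWA, mm10 and DESeq2 1.2.5. RRHP tables held raw counts per CpG cytosine and strand, deposited with promoter, exon, intron and island columns on mm10. A cytosine not listed in a library was counted as 0, and CPM is per 1000000 counts of the table. The libraries of each replicate number listed the same number of cytosines (1259056 and 1386042).

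Log2 values were tested with limma 3.58.1 (at least 5 in at least 2 libraries). For counts the test was edgeR 4.0.16 (QL F-test, TMM, gene-body and promoter sums after filterByExpr), with DESeq2 1.42.0 as an alternative, and p-values were adjusted over all features. The scripts were tested on simulated data. Exon lengths and site features came from GENCODE vM21, gene spans and sequences from RefSeq, both on GRCm38, which is mm10.

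The members and the gene lists were chosen with earlier results of these data known. Genes were named by rule: the members, the 5 genes nearest to Slc12a2, the highest, called and smallest-p cytosines of each member, and the 3 genes of smallest p in each list. Replicate numbers did not pair the samples (correlation of deviations -0.074 in RNA and -0.415 in RRHP gene bodies). For aOL RNA, pre-myelinating cells are named in titles and myelinating cells in the protocol. Reads counted near overlapping genes, as for Slc12a4 with Lcat and Slc12a9 with Trip6, carry both names.

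Alternatives were the replicate block, other filters and scalings, DESeq2, both strands summed and each library left out. Crossed replicate numbers and the read totals of the study's methods were added after seeing the data. Some genes of the lists are not reported here.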

Additional observations from a re-analysis of the deposited data

Results flagged for a closer look

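Reads were present on cytosines within the RefSeq spans of 3 members that carried no gene name in the RRHP tables and so entered no comparison between populations above, although they count in the densities over the RefSeq spans. Over the 4 libraries they numbered 222 at 5 cytosines of Slc12a5, 504 at 14 of Slc12a7 and 437 at 22 of Slc12a9, all above the limit that a count of 0 allows. In each gene they lay between the outermost RefSeq start and the start of the GENCODE model used for the site features. The counts by library were 9 and 49 in aOPC, with 52 and 112 in aOL for Slc12a5, and 35 and 118 against 110 and 241 for Slc12a7. For Slc12a9 they were 91 and 96 against 75 and 175, which is 12.8 and 5.61 CPM in aOPC, with 4.71 and 6.47 CPM in aOL. No difference between populations was tested for them.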

How the results depend on the processing

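The 4 listed transcripts kept their direction under every alternative tried. Slc12a2 and Slc12a7 were called only without 1 aOPC library, as given above, where the lone aOPC sample is assumed to vary like the aOL, and Slc12a4 and Slc12a9 under none. Leaving out 1 library at a time gave 0 to 2 members called in RNA, a Slc12a2 difference of 0.89 to 1.01, a margin over the median of the other members of 0.96 to 1.18, 0 to 6 cytosines called, 0 to 2 gene bodies called, 0 promoters called and a Slc12a2 gene-body difference of -0.08 to -0.00144. With the replicate number as a block, 1 cytosine was called, and no other call of a member changed. With crossed numbers, an alternative added after seeing the data because the deviations of same-numbered libraries were opposed, 2 cytosines, 0 gene bodies and 0 promoters of the members were called. Library totals only gave 1 cytosine, and the read totals of the study's methods, also added later, gave 2. The Slc12a2 gene-body difference turned to 0.017 with only sites of at least 3 reads in every library, and to 0.33 with the study's totals, where the median of all gene bodies was 0.37. Leaving out 1 library at a time gave gene-body differences of -0.58 to -0.025 for Slc12a5, -0.15 to 0.020 for Slc12a7 and -0.052 to 0.40 for Slc12a9, the latter 2 reversed without aOPC replicate 2. Promoter differences with library totals turned to -0.38 for Slc12a2, -0.50 for Slc12a7 and -0.26 for Slc12a9. Promoter differences with 1 library left out ranged from -0.27 to 0.18 for Slc12a4, reversed without replicate 3 of either population. They ranged from -0.23 to 0.28 for Slc12a7 and -0.053 to 0.58 for Slc12a9, reversed without aOL replicate 3. For Slc12a2 they ranged from 0.022 to 0.38 and for Slc12a5 from -0.83 to -0.080, without reversal. The cause of these changes was not tested. Over all genes, limma called 1 higher and 8 lower, against 30 and 97 with the block and 2026 and 1969 without aOPC replicate 2. For gene bodies edgeR called 30 and 127, against 7 and 3 with only sites of at least 3 reads in every library and 228 and 490 with crossed numbers. For single cytosines it called 5382 and 4772, against 229 and 261 with at least 10 reads in every library. For promoters it called 61 and 51, against 249 and 88 with crossed numbers and 34 and 33 by DESeq2. Only 69 of the 246 cytosines had enough reads to be tested.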
